A study of Bos grunniens with 6 samples.

Results

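The m6A peaks of yak testis RNA that are spread over 5 or more exon blocks are described here. A peak is a stretch of transcript in which reads of the antibody-bound RNA (immunoprecipitation, IP) outnumber those of the input RNA, and an exon block is an uninterrupted run of genome bases within it, so that a peak crossing spliced exons has as many blocks as separate runs. The deposited peak table listed 16318 peaks, and the 1109 peaks (6.80%) chosen by their number of blocks, 5 or more in the deposited calls, were taken as members. They lay on 972 genes, and 2 of them were assigned to no gene. A further 7434 peaks had 2 to 4 blocks and 7775 had 1 block.

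Testicular parenchyma came from 6 male yaks, of which 3 were 6 months old and had not reached sexual maturity (Y6M) and 3 were 30 months old and sexually mature (Y30M). No animal received a treatment named in the labels. Each animal gave an IP and an input library of fragmented polyadenylated RNA, so that 12 libraries were sequenced. Peaks were called over both groups together, so each peak has 1 value without a spread between animals, and its read depth is unknown.

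m6A is a methyl group on the N6 position of adenosine, added to RNA by a METTL3-containing complex, removed by FTO and ALKBH5 and read by proteins such as those with a YTH domain. In mammalian mRNA the mark is known to concentrate in long exons and around the stop codon, while short internal exons away from the transcript ends usually carry little of it. In testis the mark is known to take part in spermatogonial differentiation and meiosis.

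The expression values were FPKM of the 6 input libraries, that is fragments scaled by transcript length and by mapped reads. Relative depth, read from the steps of the low FPKM values, lay between 0.75 and 1.07 of Y30M replicate 1. The second principal component (7.38% of the variance, against 87.3% for the component that separated the ages) placed both replicate 3 libraries at -43 and -52.5 and the other 4 between 13 and 36.2. Among marker genes with a known symbol, which come from tables that favour genes that changed with age, 3 of 3 of the Sertoli cell list were lower in Y30M, where 16.4% of all genes were lower (summed FPKM 159 to 222 in Y6M and 23.5 to 40.7 in Y30M), as was LHCGR of the Leydig cell list (34.4 to 67.3 and 1.44 to 5.37 FPKM) and PECAM1 of the peritubular and vascular list (5.75 to 10.5 and 2.03 to 3.08 FPKM). SYCP3, a spermatocyte marker, was higher in Y30M (7.18 to 31.4 FPKM, against 1.91 to 5.27 in Y6M). These lists moved with age, and their part in the age differences given below was not tested. The paper reports more layers of spermatogenic cells and more interstitial cells after sexual maturity. In bulk tissue, a change in the number of cells of a type, in RNA per cell and in its share beside the RNA of other cells cannot be told apart.

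The members held 7327 blocks, from 5 to 25 per peak with a median of 6. The summed length of the blocks of a peak, its exonic length, had a median of 643 bases (quartiles 448 and 942, range 149 to 5398). The span from the first to the last base, introns included, had a median of 11389 bases (quartiles 5302 and 22706), and the longest span was 470156 bases. Exonic bases made up 3.63% of the summed span of the members. Peaks of 2 to 4 blocks had a median exonic length of 286 bases over a median span of 3004 bases, and 1-block peaks had a median length of 250 bases. These lengths follow in part from the rule on blocks and are given without a test. At the threshold itself, the 445 peaks of exactly 5 blocks had a median exonic length of 498 bases and a median span of 7984 bases, and the 1037 peaks of exactly 4 blocks had 389 and 6522 bases.

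Blocks at the ends of a member were shorter than those inside it. The 5109 internal blocks had a median length of 101 bases (quartiles 66 and 144), the 5′ end blocks a median of 57 bases and the 3′ end blocks a median of 66 bases, as the strand of the peak orders them. Blocks under 20 bases made up 5.09% of the internal blocks, 20.6% of the 5′ end blocks and 17.3% of the 3′ end blocks. In the members that kept 5 blocks when blocks with at most 10 bases between them were joined, the shares were 2.63%, 19.1% and 16.3%. Few internal blocks were long: 9.04% exceeded 200 bases and 2.19% exceeded 400 bases. Of the 3′ end blocks 13.5% exceeded 200 bases, against 7.21% of the 5′ end blocks.

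**Figure D1:**
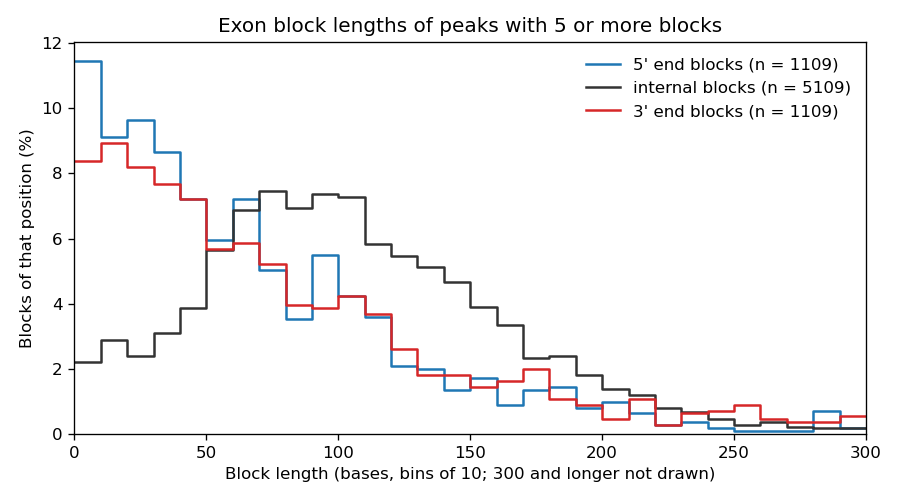
Lengths of the exon blocks of peaks with 5 or more blocks in bins of 10 bases (horizontal axis, bases), as a percentage of the blocks at the same place in the peak (vertical axis), for 1109 blocks at the 5′ end, 5109 internal blocks and 1109 blocks at the 3′ end. End blocks are most frequent below 40 bases, whereas internal blocks are most frequent between 60 and 110 bases.

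The longest block of a member had a median of 183 bases and held a median of 32.0% of the exonic length. It was an internal block in 809 members (72.9%), the 3′ end block in 182 (16.4%) and the 5′ end block in 118 (10.6%). Internal blocks made up 69.7% of all blocks of the members, so the internal share of the longest blocks was near that of the blocks themselves. A length that is a multiple of 3, which keeps the reading frame when an exon is included or skipped, was found for 48.1% of the internal blocks, against 33.9% of the 5′ end blocks and 34.4% of the 3′ end blocks, whose outer edges are set by the peak and not by a splice site. In peaks of 3 or 4 blocks the internal share was 43.0%, and in the members that kept 5 blocks after joining 45.8%. In the 90 members that did not, 316 of 437 internal blocks (72.3%) had such a length.

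The spaces between neighbouring blocks had a median of 1108 bases, but 471 of the 6218 spaces (7.57%) were 10 bases or shorter, and 429 of those were 1 or 2 bases. In peaks of 2 to 4 blocks 2.63% of the spaces were that short. The short spaces lay in 145 members (13.1%). When blocks with at most 10 bases between them were joined, a step chosen after the data were seen, 1019 members kept 5 or more blocks, 90 did not, and 21 of those became 1 block. Of the 90, 38 were on chromosome 29, between 31834 and 10213947, and 19 on chromosome 12 (coordinates here and below are in LU_Bosgru_v3.0). The genes of 31 of the 90 and of 1003 of the 1019 had FPKM values. The members with the most blocks held such short spaces. A peak of ENSBGRG00000018735 on chromosome 29 had 25 blocks within 5705 bases and 12 after joining. ENSBGRG00000016057 on chromosome 12 had a peak of 22 blocks within 1486 bases, all of which joined into 1.

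By chromosome, members made up between 3.64% of the peaks (chromosome 20) and 21.1% (chromosome 29, 48 of 228 peaks), with a median of 6.50% over the 31 chromosomes with 20 or more peaks. The next highest share was 9.79%, on chromosome 25. After joining, chromosome 29 had 10 members (4.39%) and chromosome 12 fell from 44 to 25.

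**Figure D2:**
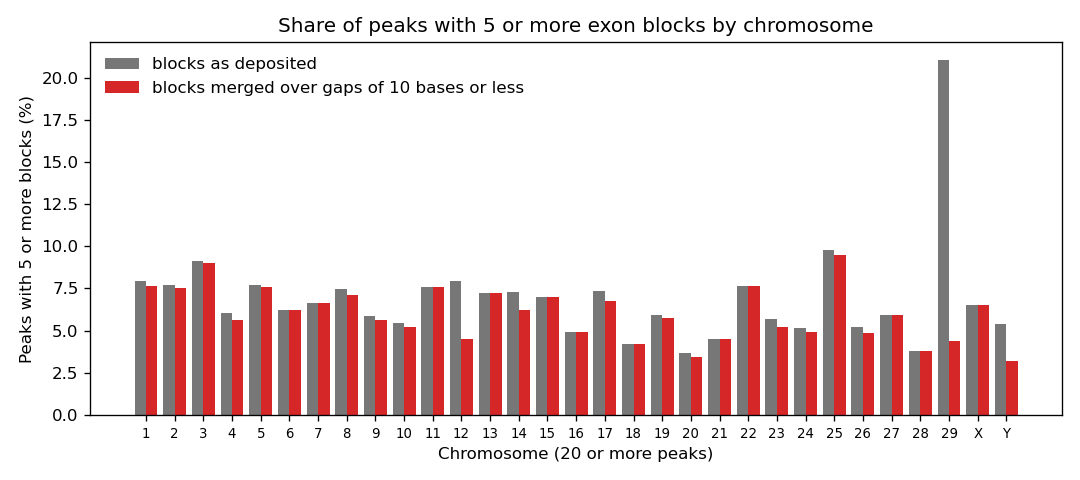
Peaks with 5 or more exon blocks as a percentage of all peaks of a chromosome (vertical axis), for the 31 chromosomes with 20 or more peaks, with the blocks as deposited (grey bars) and after joining blocks with at most 10 bases between them (red bars). Chromosome 29 stands at 21.1% as deposited and at 4.39% after joining.

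Among members on genes with a known symbol, the most blocks were found in CLIP1, which encodes a protein of growing microtubule ends, and in COL6A1, a chain of type VI collagen, with 14 each. The CLIP1 peak (chromosome 16, 58558307 to 58611460) joined 1894 exonic bases, with internal blocks of 50 to 216 bases and a 3′ end block of 389 bases, and its fold enrichment was 4.05 (enrichment FDR 1.82e-06). AKAP9, which anchors kinases at the centrosome and the Golgi apparatus, RNF20, a ubiquitin ligase of histone H2B, and COL6A6, another type VI collagen chain, had peaks of 13 blocks. The RNF20 peak held 1900 exonic bases in a span of 9800 bases on chromosome 7. Its blocks measured 66, 78, 120, 180, 136, 122, 371, 118, 150, 213, 126, 141 and 79 bases from 5′ to 3′, of which 371 and 213 exceeded 200 bases, and its fold enrichment was 3.18.

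AKAP9 carried 4 members, which lay within 120638791 to 120762156 of chromosome 4 and had 7, 13, 5 and 5 blocks in the order of the genome. The 13-block member of AKAP9 held a block of 1077 bases and the last of the 4 a block of 1608 bases at its 3′ end, and their fold enrichments were 3.10 and 3.73. EEA1, a tether of early endosomes, CROCC, which builds the ciliary rootlet, and COL11A2, a chain of a fibrillar collagen of cartilage, had 3 members each. Across all member genes 858 had 1 member, 97 had 2, 13 had 3 and 4 had 4. For 313 genes the member was the only peak.

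The longest member by span on a gene with a symbol was in SRGAP1, a GTPase-activating protein, where 648 exonic bases lay in 234078 bases of chromosome 5. The shortest was in HDDC3, with 809 bases, and it had 4 blocks after joining. The longest exonic length, 5398 bases, belonged to PLEC, a linker between the parts of the cytoskeleton, and 2571 and 1316 of these bases were in 2 of its 8 blocks. The shortest was a COL6A2 member of 198 bases.

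The block lengths of the collagen members formed a pattern that was noticed after the values were seen. Exons that encode the triple helix of collagens are known to be built of repeats of 9 bases, each of them a Gly-X-Y triplet, and often measure 54 or 63 bases. Of the 49 internal blocks in the 8 members of COL6A1, COL6A2, COL6A6 and COL11A2, 40 (81.6%) had a length that is a multiple of 9, and 28 measured 54 or 63 bases. In the members on all other genes 796 of 5060 internal blocks (15.7%) were multiples of 9. The median internal block was 54 bases in the collagen members and 102 bases in the others. From 5′ to 3′ the 14-block member of COL6A1 (chromosome 1, 159049016 to 159057683) measured 14, 54, 63, 63, 54, 36, 63, 63, 63, 63, 51, 36, 63 and 62 bases, and the last COL11A2 member (chromosome 24, 29424152 to 29426334) measured 108, 54, 54, 54, 54, 108, 54 and 14 bases. The fold enrichment of the 8 collagen members lay between 1.34 and 2.74 with a median of 1.93, against a median of 2.58 in the other members. The 3 COL11A2 members had an enrichment FDR of 0.05 or less, and the 5 members of the type VI chains did not.

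The fold enrichment of IP over input comes from the peak calls that gave the blocks, so it is given as a description. Members had a median fold enrichment of 2.57 (quartiles 2.12 and 3.18), peaks of 2 to 4 blocks 2.15 and 1-block peaks 2.39. Across block counts the median fell from 2.39 at 1 block to 2.08 at 3 blocks and then rose to 2.37 at 5, 2.62 at 7, 2.84 at 9 and 3.05 in the 98 peaks with 10 or more blocks. Exonic length rose alongside, from a median of 498 bases at 5 blocks to 1200 bases at 10 or more. In 1-block peaks of 448 bases or longer, the lower quartile of the exonic length of the members, the median exonic length was 645 bases and the median fold enrichment 3.20. At a like median exonic length, the members' median was below that of the 1863 such 1-block peaks. Members shorter than 448 bases were not left out, so the 2 sets differ in their range of lengths. An enrichment FDR of 0.05 or less was given for 890 members (80.3%), against 69.0% of all peaks, 71.4% of peaks with 2 to 4 blocks and 65.0% of 1-block peaks.

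**Figure D3:**
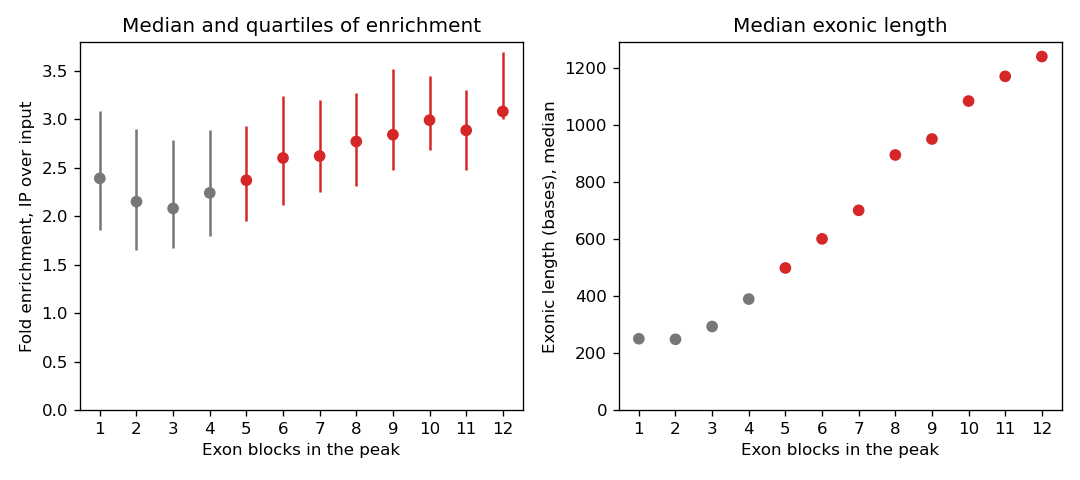
Left, median (points) and quartiles (lines) of the fold enrichment of IP over input by the number of exon blocks in a peak, and right, the median exonic length in bases, for block counts found in 15 or more peaks. Red marks 5 or more blocks. The median enrichment is lowest at 3 blocks, at 2.08, and is 3.08 at 12 blocks, while the exonic length grows from 250 to 1239 bases.

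Within genes the order was similar, but peaks of like length were not chosen for this comparison. In 302 genes that held a member and a 1-block peak, the member had the higher mean enrichment in 191 (63.2%), with medians of 2.67 and 2.31. In 494 genes with a member and a peak of 2 to 4 blocks it was higher in 332 (67.2%), with medians of 2.62 and 2.18. Of 659 member genes with more than 1 peak, the highest peak was a member in 382 (58.0%). The member genes held 2417 peaks in all and some carried several members. The 58.0% was not set against the share of members among these peaks.

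The highest fold enrichment of a member was 18.7, in FNBP1L, which links curved membranes to actin (chromosome 3, 54347864 to 54361614, 6 blocks of 90 to 159 bases, enrichment FDR 3.16e-16). ERLEC1, a lectin of the endoplasmic reticulum, followed at 8.93 among the members with a symbol and an enrichment FDR of 0.05 or less, with 6 blocks of 35 to 81 bases. CCDC77, a coiled-coil protein, had 6.33, BHLHE41, a repressor of the circadian clock, 4.87, and SMTN, an actin-binding protein of smooth muscle, 4.70. In BHLHE41 the 3′ end block had 518 of the 942 exonic bases. Just inside the threshold, the highest members of 5 blocks with a symbol were CCDC77, SMTN and ANKRD17, the last at 4.48, and the highest without regard to a symbol had 17.9. Just outside it, the highest peaks of 4 blocks on genes with a symbol were those of CPLANE1 at 11.7, SIDT1 at 5.75 (enrichment FDR 1) and DYNC2LI1 at 5.26, while the highest of all peaks of 4 blocks had 18.5.

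Candidate adenosines inside the peaks of each age group also had a deposited score, from a predictor that the sources used here do not name. A site was called at a score of 0.528 or more. The score was treated as one made from sequence, with no IP reading in it. The shares below therefore compare exon with intron sequence and are no reading of methylation, and what sets them was not tested. The lists give the span of a peak but no blocks, and 295 members had the same coordinates in the Y6M list. These members held 117426 scored adenosines, of which 3796 (3.23%) lay in exon blocks and the rest in the sequence between them. The predictor called 35.4% of the adenosines in blocks (95% exact binomial interval 33.9 to 36.9) and 18.6% of those between blocks (18.4 to 18.8), and these intervals cover counting error only. Of all predicted sites in the members, 5.98% were in exon blocks. The share was higher in blocks in 205 of the 288 members with adenosines in both places (71.2%). In the same list the share in blocks was 39.8% for peaks of 2 to 4 blocks and 44.5% for 1-block peaks. The intervals count the adenosines of a peak as independent, so they do not test these sets against each other. Taken per peak with adenosines in both places, the median share in blocks was 30.8% for members and 33.3% for peaks of 2 to 4 blocks.

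The Y30M list covered chromosomes 1 and 2, and 28 members had the same coordinates there. The predictor called 34.3% of their 341 adenosines in blocks (29.3 to 39.6) and 18.4% of those between blocks (17.9 to 18.9). In this list the share in blocks was 35.8% for peaks of 2 to 4 blocks and 41.9% for 1-block peaks, and the sets were not tested against each other. The lists differ in the peaks and chromosomes they hold, and these shares were not compared between the ages.

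**Figure D4:**
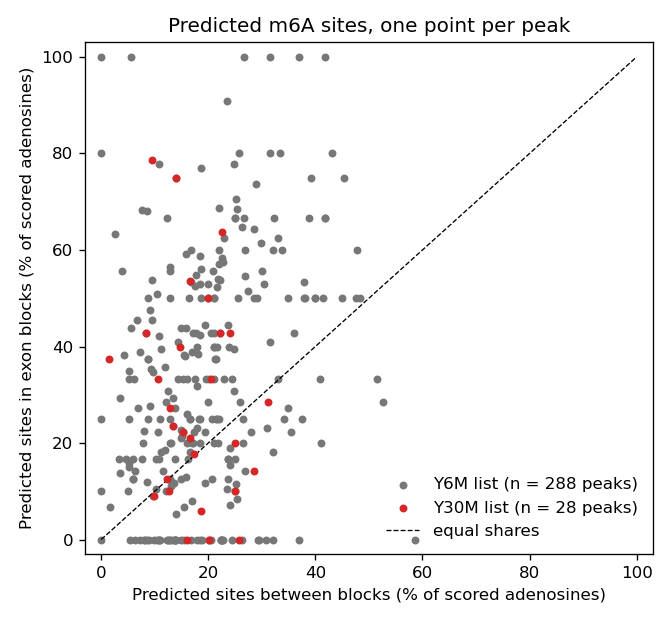
Share of scored adenosines that were predicted m6A sites in exon blocks (vertical axis, %) against the share between blocks (horizontal axis, %), 1 point per peak with 5 or more blocks, for 288 peaks listed in Y6M and 28 listed in Y30M. The dashed line marks equal shares, and 205 of the 288 Y6M points lie above it.

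On chromosomes 1 and 2, where both lists could be set against the members, 99 of 106 members (93.4%) overlapped a peak of the Y6M list by 1 base or more and 96 (90.6%) a peak of the Y30M list. Both lists held 91 members (85.8%), 8 were in the Y6M list alone, 5 in the Y30M list alone and 2 in neither. Peaks of 2 to 4 blocks were in both lists in 57.8% of cases and 1-block peaks in 59.0%. The overlap was taken on the span, and the median span of a member was 11389 bases, so the wider span and the share in both lists cannot be told apart. Where an overlap of at least 50% of the span was asked for, 63.2% of the members were in both lists. Members found in the Y6M list alone included COL6A6, RNF168, a ubiquitin ligase of the DNA damage response, and PHLDB2. Those in the Y30M list alone included FAM207A and the 5-block member of COL6A1 (159045591 to 159046434). Of the members named here, only that of FAM207A met the enrichment FDR threshold used above (log10 FDR -3.49). Mean expression in Y6M and Y30M was 4.83 and 0.671 FPKM for COL6A6, and 211 and 28.98 FPKM for COL6A1. The part of expression in these list differences was not tested. The 14-block member of COL6A1 overlapped peaks of both lists.

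Genes with a member were more abundant than genes with other peaks in each library. For replicates 1 to 3, their median FPKM reached 12.4, 13.0 and 17.9 at Y6M and 15.6, 11.4 and 18.4 at Y30M. Genes with a peak of 2 to 4 blocks had medians from 9.01 to 12.7 and genes with a 1-block peak from 6.53 to 9.02, and a gene can stand in more than 1 of these sets. FPKM values were held for 913 of the 972 member genes, and 911 of these had a mean of 1 or more. When the members were put in 4 groups of like size by the mean FPKM of their genes, the median fold enrichment was 2.58, 2.64, 2.63 and 2.48 from the lowest to the highest group, while the median span fell from 17883 to 7934 bases. The share with an enrichment FDR of 0.05 or less was 86.2% in the lowest group and 67.1% in the highest.

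To see how the member genes differed between the ages, all 19477 genes above 0 in at least 1 input library were fitted with limma on log2(FPKM + 1), and a gene was called at a Benjamini-Hochberg adjusted p of 0.05 or less and a fold change of 1.5 or more. Of the 913 member genes 194 (21.2%) were higher in Y30M, against 25.3% of all genes tested, and 139 (15.2%) were lower, against 16.4%. The other 580 (63.5%) were not called, and the median log2 fold change was 0.01, against 0.04 over all genes. The libraries of the ages did not overlap for 436 member genes (47.8%), against 54.1% of all genes. Of all genes tested 71.4% had a mean FPKM of 1 or more, a lower share than among the member genes. Of genes with any peak 25.3% were higher in Y30M and 20.7% lower, and the libraries did not overlap for 58.1%. With median-of-ratios scaling 175 member genes were higher and 190 lower, so the higher share of the calls went from 58.3% to 47.9%. With TPM 225 were higher and 114 lower, and that share was 66.4%. Without Y6M replicate 2 the number lower was 91, and without both replicate 3 libraries 187 were higher and 108 lower. Shares over all genes were not taken under these alternatives. A shift common to all genes and one of the members cannot be told apart in them.

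Member peaks on genes called in neither direction had an enrichment FDR of 0.05 or less in 609 of 662 cases (92.0%). The share was 58.4% of the 219 members on genes higher in Y30M and 61.4% of the 153 members on genes lower in Y30M. Peaks of 2 to 4 blocks showed 84.7%, 51.7% and 56.3%, and 1-block peaks 80.4%, 41.7% and 56.2%, in the same order. The median fold enrichment of the members was 2.62, 2.66 and 2.36.

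Among the 169 member genes with a symbol, SOX5, a transcription factor of the SOX family, had the largest rise. It measured 0.889, 0.803 and 0.741 FPKM in the Y6M libraries and 37.2, 61.0 and 52.2 FPKM in those of Y30M, a log2 fold change of 4.79 ± 0.27 (SE, limma adjusted p = 2.87e-05). CCHCR1, a centrosomal coiled-coil protein, went from 3.70 ± 0.511 to 87.6 ± 31.9 FPKM (SD, n = 3), with a log2 fold change of 4.18. CIT, a kinase of cytokinesis, measured 1.16, 1.61 and 2.25 FPKM in Y6M and 44.2, 40.3 and 39.7 in Y30M (log2 fold change 4.01). LARP1B, an RNA-binding protein, rose by 3.98 on the log2 scale. KIF5C, a kinesin motor, had 6.65 ± 0.358 FPKM in Y6M and 110 ± 40.1 in Y30M (SD, n = 3), and its member had 10 blocks. SLC24A1, an exchanger of sodium for calcium and potassium, rose by 3.005 on the log2 scale from 0.310 ± 0.0345 FPKM. The pseudocount of 1 shrinks the fold change of genes with low FPKM. With a pseudocount of 0.1 the log2 fold change was 5.76 for SOX5, 4.59 for CIT, 4.80 for LARP1B and 4.55 for SLC24A1. The limma adjusted p of these 6 genes stayed at 0.0106 or less under the 12 alternative fits. Their call and the lack of overlap between the ages were conditions of their choice.

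COL6A1 had the largest fall of the member genes with a symbol. It measured 217, 199 and 216 FPKM in the Y6M libraries and 37.6, 25.8 and 23.6 FPKM in those of Y30M, a log2 fold change of -2.85 ± 0.22 (SE, limma adjusted p = 8.17e-05). COL6A2, another type VI chain encoded nearby on chromosome 1, had 326, 273 and 223 FPKM in Y6M and 64.9, 45.2 and 45.7 in Y30M (log2 fold change -2.38, limma adjusted p = 0.00022). APP, the amyloid precursor protein, went from 683 ± 102 to 141 ± 47.6 FPKM (SD, n = 3). PPP1R1A, an inhibitor of protein phosphatase 1, went from 99.8 ± 33.8 to 21.6 ± 1.60 FPKM, and DPF3, a subunit of the BAF chromatin remodelling complex, from 14.99 ± 2.34 to 3.45 ± 0.876 FPKM. LCP2, an adaptor of immune cell receptors, had 6.01, 10.5 and 27.9 FPKM in Y6M and 1.68, 1.59 and 5.33 in Y30M. Its call (limma adjusted p = 0.0365) was lost when Y6M replicate 2 or 3 or Y30M replicate 1 or 2 was left out, with adjusted p up to 0.133.

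**Figure D5:**
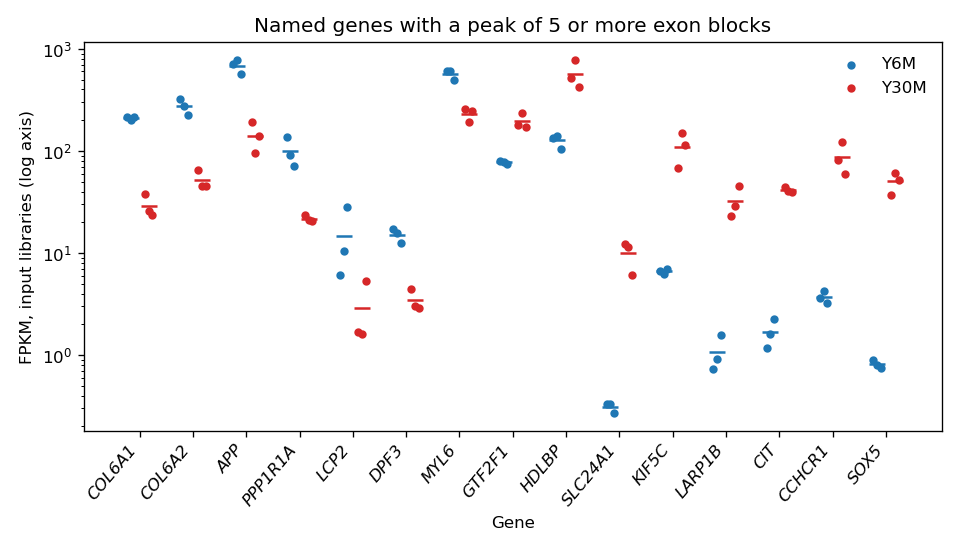
FPKM of the 3 Y6M (blue) and 3 Y30M (red) input libraries on a log axis for genes with a peak of 5 or more exon blocks, namely the 6 largest rises, the 6 largest falls and the most abundant genes among those with a symbol, with the libraries as points and the group means as lines. COL6A1 falls from a mean of 211 to 28.98 FPKM and SOX5 rises from 0.811 to 50.1. The libraries of the ages do not overlap for any gene drawn, which was a condition for choosing the rises and falls.

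The most abundant member genes with a symbol were APP, MYL6, HDLBP, COL6A2 and GTF2F1. MYL6, a light chain of non-muscle and smooth muscle myosin, fell from 569 ± 59.6 to 231 ± 33.6 FPKM (SD, n = 3, log2 fold change -1.30). HDLBP, an RNA-binding protein of many KH domains, rose from 127 ± 19.5 to 573 ± 184 FPKM (log2 fold change 2.13), and it carried 2 members. GTF2F1, a subunit of the general transcription factor TFIIF, rose from 77.2 ± 2.94 to 196 ± 34.9 FPKM (log2 fold change 1.32). All 3 were called, with limma adjusted p from 0.000813 to 0.00233.

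Gene lists could be applied to genes with a symbol alone, and 4 of 18 lists held a member gene. Some lists, such as those of the axoneme and cilium and of translation factors, were made by symbol prefix. Not every gene in them need have the function that names the list. The symbols come from tables that favour genes that changed with age, so the counts of a list are no independent evidence of its direction. Of the 7 collagen genes with a symbol, 4 carried members and 3 of these were lower in Y30M, while 6 of the 7 were lower in the whole list, against 16.4% of all genes tested, with a median log2 fold change of -2.20 (0.04 over all genes). COL6A6 had 3.31, 3.25 and 7.92 FPKM in Y6M and 0.517, 1.28 and 0.210 in Y30M (log2 fold change -1.76, limma adjusted p = 0.00909, and -2.81 with a pseudocount of 0.1). The level of PECAM1, given above, was lower in Y30M as well, and its part in the collagen values was not tested. COL11A2 had 7.90, 12.6 and 3.49 FPKM in Y6M and 7.78, 12.3 and 6.46 in Y30M, overlapping ranges that did not pass the test (limma adjusted p = 0.725).

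Of the 20 genes with a symbol in the axoneme and cilium list 16 were higher in Y30M (25.3% of all genes were) and none was lower, and 3 carried members. CFAP20DC rose from 3.71 ± 1.89 to 13.8 ± 2.20 FPKM (SD, n = 3, limma adjusted p = 0.00574). IFT74, of the intraflagellar transport complex, had 3.66, 4.07 and 10.4 FPKM in Y6M and 10.2, 8.12 and 31.1 in Y30M, with replicate 3 highest at both ages. It did not pass (limma adjusted p = 0.129), but did so with the replicate number as a block (0.00833). DNAI7, of the axonemal dynein, had 0.299, 0.577 and 1.95 FPKM in Y6M and 2.73, 2.72 and 14.2 in Y30M (limma adjusted p = 0.0585, and 0.00514 with the block, with a log2 fold change of 1.71, or 2.56 with a pseudocount of 0.1). EIF2A, which can bring initiator tRNA to the ribosome, was the member gene of the translation factor list, in which 5 of 9 genes were higher and 2 lower (median log2 fold change 1.01), and it fell by 0.67 on the log2 scale (limma adjusted p = 0.0493, 0.0159 to 0.127 over the alternatives). The splicing factor PRPF3 did not pass the test, with 13.7 ± 3.20 FPKM at the younger age and 15.7 ± 4.68 at the older (SD, n = 3).

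Of the genes named for their peaks, CLIP1 was higher in Y30M, at 7.27, 8.38 and 9.67 FPKM in Y6M and 24.0, 29.8 and 27.7 in Y30M (log2 fold change 1.58 ± 0.22 SE, limma adjusted p = 0.00105). SRGAP1 fell from 22.7 ± 3.48 to 6.21 ± 2.14 FPKM (SD, n = 3), and CCDC77 rose from 4.47 ± 0.248 to 11.1 ± 1.97 FPKM. AKAP9 had 6.06, 7.76 and 16.2 FPKM in Y6M and 3.28, 1.75 and 6.45 in Y30M, with replicate 3 highest at both ages. It did not pass (limma adjusted p = 0.0881, and 0.0169 with the block). RNF20 (14.9 ± 3.94 and 9.08 ± 2.14 FPKM, limma adjusted p = 0.108) and PLEC (11.4 ± 4.18 and 27.2 ± 13.0 FPKM, limma adjusted p = 0.076) did not pass either, and with the block reached 0.0409 and 0.00486. FNBP1L, the member gene of the highest enrichment, had 24.6 ± 10.9 FPKM in Y6M and 21.1 ± 10.7 in Y30M, and ERLEC1 had 19.8 ± 5.32 and 17.8 ± 8.78 FPKM. BHLHE41, SMTN, EEA1, CROCC, HDDC3 and ANKRD17 did not pass the test, with log2 fold changes between -0.75 and 0.15.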

How the data were processed

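The authors trimmed reads with Trimmomatic, removed ribosomal reads with SortMeRNA, aligned the rest to LU_Bosgru_v3.0 with HISAT2 at default settings, dropped multiple alignments and called peaks with MeTDiff against the input libraries. Tool versions are not given in the sources used here. The authors deposited FPKM per gene and input library (tool not given), a peak table with blocks, the fold enrichment ratio of IP over input and the log10 of its FDR, and the site lists with a predictor score. The peak table also holds the authors' comparison of the ages (log2 fold changes, p-values and FDRs), which was not used.

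The members and lists were chosen with earlier results of these data known. FPKM were fitted as log2(FPKM + 1) with limma 3.58.1 (trend, R 4.3.3), checked on simulated data, with no replicate block, and peaks were described with Python 3.11.15. Alternatives were a pseudocount of 0.1, a mean FPKM of 1 or more, TPM, median-of-ratios scaling, the study's unadjusted p threshold, a fold of 2, a replicate block, each library left out, other block minimums and overlaps and a score of 0.6. Same-numbered libraries of the ages come from different animals, and beyond the number in the titles the labels give no pairing. Their deviations from the group means correlated at 0.209, 0.283 and 0.604 for replicates 1, 2 and 3. Replicates 1 and 2 correlated about as much across numbers. Y6M replicate 1 reached 0.322 with Y30M replicate 2, and Y6M replicate 2 reached 0.253 with Y30M replicate 1. Replicate 3 alone stood out, and the replicate block was run as an alternative.

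Peak starts are given counted from 1. Symbols came from gene lists in the study's supplementary tables, for 2153 gene IDs and 169 of the 972 member genes (17.4%). Those tables favour genes that changed with age. Of the 169 member genes with a symbol 20.7% were higher in Y30M, 17.8% were lower, and for 53.3% the libraries of the ages did not overlap. Over all member genes tested these shares were 21.2%, 15.2% and 47.8%. Named genes were those with a symbol that had the most blocks, highest enrichment, most members, extreme lengths, the 6 largest called rises and falls without overlap, the highest FPKM and up to 4 per list. Of the 14 lists without a member gene, 3 held no symbol, and values are given for the marker lists with one. The sequence of the blocks and their place in coding sequence or UTR were not analysed here. The 6 animals per the labels are separate replicates. A gene that the rule would name is not reported here.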

Additional observations from a re-analysis of the deposited data

How the results depend on the processing

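Members with 6 or more blocks numbered 664 and those with 4 or more 2146, with median exonic lengths of 766 and 496 bases, median spans of 14375 and 8647 bases and median fold enrichments of 2.74 and 2.42. Counting blocks of 20 bases or longer alone gave 697 bases, 12620 bases and 2.67, and joining blocks over spaces of at most 10 bases (chosen after seeing the data) gave a span of 12532 bases. An overlap of at least 50% of the span left 81.1% of the members in the Y6M list and 73.6% in the Y30M list. At a score of 0.6 the predicted share was 16.3% in blocks and 7.60% between them. Among genes with a member at an enrichment FDR of 0.05 or less, which are fewer, 114 were higher and 88 lower in Y30M. Leaving out each library in turn gave 134 to 187 genes higher, 91 to 135 lower and 612 to 688 not called. With the replicate block, which pairs the animals by number, 234 were higher, 198 lower and 481 not called, and beside the 5 gains given above it changed no call of a named gene. The same 5 genes were also called in fits without the block. These were AKAP9 (FPKM filter, median-of-ratios), RNF20 (median-of-ratios), PLEC (filter, TPM, without Y30M replicate 3) and DNAI7 (pseudocount, filter, TPM). IFT74, DNAI7 and PLEC were called without both replicate 3 libraries. The counts of these alternatives stand without a share over all genes. Log2 fold changes that had not passed the test changed sign with a library left out, over ranges of -0.20 to 0.59 for COL11A2, -0.041 to 0.36 for PRPF3, -0.61 to 0.11 for FNBP1L, -0.57 to 0.087 for ERLEC1, -0.31 to 0.050 for SMTN, -0.61 to 0.22 for EEA1, -0.020 to 0.28 for HDDC3 and -0.24 to 0.13 for ANKRD17. Without both replicate 3 libraries they were -0.025 for COL11A2, 0.13 for SMTN and 0.021 for ANKRD17, and with TPM 0.045 for SMTN and 0.068 for ANKRD17. The causes were not tested. EIF2A lost its call with the pseudocount, filter and TPM alternatives and without any 1 library, and CCDC77 without both replicate 3 (limma adjusted p = 0.0518). Peak values carry no replicate spread, reads per peak are unknown, and with 3 animals per age small differences can be missed.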
